A study of Homo sapiens with 36 samples.

Results

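The genes described here encode the replication-dependent histones, the linker histone H1 and the core histones H2A, H2B, H3 and H4 that package newly made DNA. They were chosen by symbol, as the genes named H1-1 to H1-6 and the numbered H2AC, H2BC, H3C and H4C genes of the histone clusters. Of 69 rows with such a symbol, 62 held values, out of 18048 genes with values in the series. These were 5 H1, 15 H2A, 16 H2B, 13 H3 and 13 H4 genes. The rows of H1-1, H2AC1, H2AC19, H2BC1, H2BC3, H4C6 and H4C7 held no values.

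EA.hy926 cells, a human line made by fusing umbilical vein endothelial cells with a lung carcinoma line, were exposed to perfluorooctanoic acid (PFOA), a persistent fluorinated surfactant. The genotype was labelled wild type, and every group, controls included, carried 0.05% DMSO as vehicle and grew in medium supplemented with HAT, the selective mixture on which such hybrids are kept. The short protocol used 0, 1, 10 or 100 µM PFOA over 48 h. The long one used 0, 1, 10 or 100 nM over 6 or over 12 weeks. With 3 libraries a group, labelled biological replicates, this gave 12 groups and 36 libraries, in 3 tables of 12 libraries that were normalised separately. Short-exposure cells were lysed in their dishes, and long-exposure cells were collected when subcultured.

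Replication-dependent histone genes are transcribed in S phase, when a cell needs histones for its new DNA. Their mRNAs are the exception among protein-coding transcripts, because they normally end in a conserved stem-loop instead of a poly(A) tail. The stem-loop is bound by SLBP, the 3′ end is cut with the help of U7 snRNP, and the mRNA is degraded when replication stops. The labels name an mRNA-seq workflow without saying how mRNA was enriched. A library selected for poly(A), as is usual in such workflows, sees mostly the molecules that end in a tail.

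The stem-loop could be read in the gene models, and it is shown here because it is what sets these mRNAs apart. In GENCODE release 29, 35 of the 62 genes had a model that ran beyond the coding sequence. Of those 35, 28 carried the motif searched for. It was a fully paired stem of 6 base pairs starting with GG, around a loop of 4 bases starting with TT. The other 27 models held the coding part alone. Among 19615 other protein-coding genes, 90 (0.459%) had such a motif. Members from 3 classes, with the 16 bases of stem and loop in capitals and 5 bases on either side, read as follows.
H2AC18: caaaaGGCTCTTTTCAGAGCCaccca
H2AC6: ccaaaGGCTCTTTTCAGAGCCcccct
H2BC21: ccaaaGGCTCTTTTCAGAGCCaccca
H2BC5: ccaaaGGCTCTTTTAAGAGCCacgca
H4C11: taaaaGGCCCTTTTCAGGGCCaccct
H4C15: ccaaaGGCCCTTTTTAGGGCCgacca
H4C14: ccaaaGGCCCTTTTTAGGGCCgacca
The form printed for H2AC18, H2AC6 and H2BC21 was shared by 16 members, that of H4C11 by 5, that of H2BC5 by 4 and that of H4C15 and H4C14 by 3. The models differed in how much sequence followed the loop. The shortest model of each gene ran 6 bases past the loop in H4C11, 35 in H2AC18 and 39 in H2BC5, but 240 in H4C15, 1114 in H2AC6 and 1729 in H2BC21.

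The promoters are shown because the histone classes differ in them. RefSeq promoters on GRCh38.p14, 250 bases before to 50 after each start, were held for 57 members. TATAA, read on both strands like the 2 motifs that follow, was present in 91.2% of them and in 20.3% of 35055 other promoters. CCAAT was present in 84.2% against 34.5%, in every H1, H2A, H2B and H3 promoter held but in 2 of 11 of the H4 genes. The octamer ATTTGCAT was present in 40.4% against 1.71%, in 10 of 14 H2A and 12 of 16 H2B promoters, 1 of 11 H3 promoters, and in none of the 5 H1 or 11 H4 promoters. The 1 H3 promoter is that of H3C4, whose interval in the table (chr6:26199244-26199543) is the same as that of H2AC7. Several H2A and H2B windows also overlap on opposite strands, so a site can count for both genes. Examples are H2AC11 (chr6:27132793-27133092) with H2BC11 (chr6:27132746-27133045), and H2AC6 with H2BC4. The 120 bases upstream of the start of 4 tested genes follow, 5′ to 3′ on the strand of the gene, with each of the 3 motifs, or its reverse complement, in capitals.
H1-2, chr6:26056471-26056590, minus strand: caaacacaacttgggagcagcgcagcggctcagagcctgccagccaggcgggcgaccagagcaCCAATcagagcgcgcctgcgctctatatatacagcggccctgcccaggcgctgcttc
H2AC18, chr1:149842751-149842870, minus strand: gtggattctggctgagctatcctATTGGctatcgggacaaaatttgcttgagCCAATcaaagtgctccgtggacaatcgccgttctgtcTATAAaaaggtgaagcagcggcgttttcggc
H2AC6, chr6:26124052-26124171, plus strand: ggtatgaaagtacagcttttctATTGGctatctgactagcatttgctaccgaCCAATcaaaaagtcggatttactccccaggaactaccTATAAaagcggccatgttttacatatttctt
H2BC12, chr6:27146859-27146978, minus strand: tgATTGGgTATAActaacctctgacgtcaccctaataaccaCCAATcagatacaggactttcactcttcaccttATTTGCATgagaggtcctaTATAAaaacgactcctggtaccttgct
A match describes letters in this window only.

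The libraries held 17815292 to 19466331 reads each, recovered from the deposited normalised counts. The histone genes took 1266 to 4250 of those reads per library, and 31 to 56 of the 62 genes had at least 1 read in a given library. Endothelial markers were present as the label says, with 18 of 20 at a mean normalised count of at least 10 at each time, while CLDN5 was under 1. Of 20 epithelial markers, 7 or 8 reached that level. CDH1 was under 1, but the keratin genes KRT7, KRT8 and KRT18 were abundant, with 18963 ± 10217, 17122 ± 10251 and 26999 ± 15799 normalised counts (SD, n = 3) in the 48 h controls. The epithelial list summed to 20915 to 227937 normalised counts per library and the endothelial list to 31005 to 168658. Of 12 leukocyte markers 3 did so, with PTPRC under 1, and of 12 fibroblast and smooth muscle markers 3 or 4, with COL1A2 under 1. The libraries also differed in the share of reads on ribosomal protein genes, from 9.37% to 22.2%, a difference that moved with several histone genes and is given beside them.

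Few of the genes were read at all deeply. Averaged over the 36 libraries, 17 of the 62 had a normalised count under 1, and 15 reached the mean of 10 needed for testing at one time or more. The 4 most abundant held 75.8% of the histone signal, and the 15 tested genes 96.3%. H1-2, a linker histone gene at chr6:26055740-26056470, held 29.2% with a mean normalised count of 705. H2BC12 (chr6:27138293-27146858) held 20.1% with 486, H4C15 (chr1:149844488-149861240) 14.9% with 360 and H2AC18 (chr1:149842218-149842750) 11.6% with 280.04. By class, H2B took 32.1% of the signal, H1 29.5%, H2A 18.3%, H4 18.2% and H3 1.89%. The steepest step lay between H3 and the rest.

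**Figure D1:**
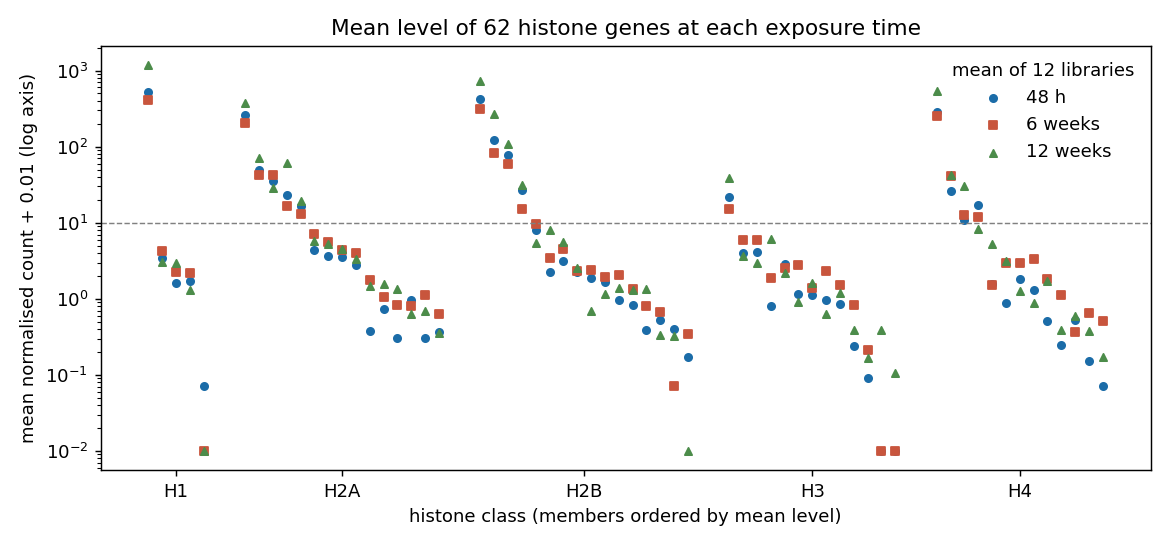
Mean normalised count of each of the 62 genes at 48 h, 6 weeks and 12 weeks, grouped by histone class, on a logarithmic axis with a dashed line at the test minimum of 10. H1-2, H2BC12, H4C15 and H2AC18 stand above all others, and 1 H3 gene reaches the line.

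Among the linker genes, which hold the DNA at its entry and exit from the nucleosome, H1-2 stood nearly alone. H1-4 had a mean normalised count of 3.58, H1-3 of 2.29 and H1-5 of 1.72, and the testis gene H1-6 of 0.0208. Of the H2A genes, H2AC18 was followed by H2AC25 with 53.6, H2AC20 with 35.5, H2AC6 with 33.6 and H2AC8 with 16.4. Of the H2B genes, H2BC12 was followed by H2BC5 with 157, H2BC21 with 81.6 and H2BC4 with 24.6. H3C6, with 25.1, was the one H3 gene above the minimum. Of the H4 genes, H4C15 was followed by H4C11 with 36.4, H4C14 with 17.9 and H4C12 with 12.3.

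Levels between genes were compared per kilobase for the genes whose RefSeq span was at most 1000 bases. H1-2 had 965 normalised counts per kilobase, against 4.55 for H1-4, the next in its class. H2AC18 had 525 and H2AC25 had 105. In the other classes the leading pairs were lower, with 16.5 for H2BC9 and 9.18 for H2BC11, 9.34 for H3C10 and 8.34 for H3C15, and 93.5 for H4C11 and 45.2 for H4C14. The 8 members with a span over 1000 bases, for which no such value was formed, held 47.2% of the histone signal and had a median mean of 53.3, against 1.62 for the other 54. Of those 8, 6 were tested, and of the 54, 9.

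Some of these values cannot be assigned to 1 gene. No source used here says whether counting used the strand. The annotated span of H4C15 overlaps H2AC19 and H3C15, and that of H2BC12 overlaps H4C9. Several members also share sequence. Of the stretches of 100 bases in its model, H4C12 had 0% found in no other member, H2AC18 0%, H4C15 2.90%, H4C14 5.13%, H4C11 22.3% and H2AC20 82.8%.

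H4C11 and H4C12 were seldom both well read in 1 library. At 48 h the controls held 25.1, 20.97 and 19.3 normalised counts of H4C11 and 0, 0 and 8.12 of H4C12. The 1 µM libraries held 20.2, 0 and 0 of H4C11 and 11.9, 19.4 and 21.1 of H4C12, and the 100 µM libraries 66.4, 75.1 and 22.3 of H4C11 and 0 in each of H4C12. One of the pair was at 0 in 23 of the 36 libraries, H4C11 in 5 and H4C12 in 18, and both reached 10 reads in 7. In the pair H4C15 and H4C14, H4C14 was at 0 in 1 library. H3C14, which shares all its stretches, was at 0 in 35. Values of H4C11, H4C12, H4C14 and H4C15 are therefore given as deposited, and their split is uncertain. H2AC18 shares its stretches with H2AC19, whose row held no values, and with H2AC20, so its reads cannot be assigned to it with certainty either.

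**Figure D2:**
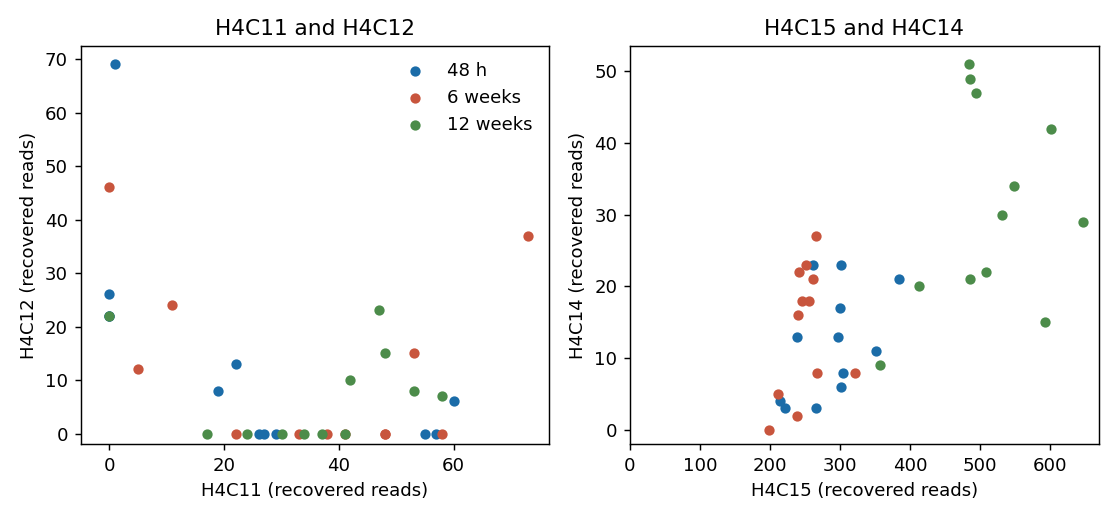
Reads of H4C11 against H4C12, and of H4C15 against H4C14, in each of the 36 libraries. In the first pair most points lie on an axis, with one of the genes at 0 in 23 libraries, while in the second pair H4C14 is at 0 in 1.

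Short exposure was examined first. In limma's test on log2(normalised count + 1), 0 of the 15 tested members passed an adjusted p of 0.05 at 1, 10 or 100 µM or in the trend over the doses, and 0% of the 12233 genes tested did in each. edgeR and DESeq2 also called 0 members in these comparisons. An unadjusted p under 0.05 was reached by 1 member at 1 µM (0.049% of all genes), 1 at 10 µM (2.82%), 0 at 100 µM (1.99%) and 0 in the trend (4.25%). The median log2 fold change of the members was -0.07, -0.07 and 0.19 at the 3 doses, against -0.01, 0.01 and 0.03 over all genes.

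H1-2 gave 298, 204 and 559 normalised counts in the 48 h controls. It gave 283, 172 and 519 at 1 µM, 564, 145 and 1594 at 10 µM and 791, 860 and 322 at 100 µM. The groups overlapped at each dose, and the 10 µM libraries alone spanned the range of all 12. The log2 fold change at 100 µM was 0.89, which did not pass. H2AC18 overlapped too, with 188, 117 and 323 in the controls and 338, 385 and 215 at 100 µM. H4C12 was the 1 member whose 3 libraries at 1 µM lay above all controls (2.31% of all genes lay above or below), with a log2 fold change of 3.11 ± 1.03 (SE) and an adjusted p of 1.00 in limma's test, and its split with H4C11 is uncertain as described. No member separated from the controls at 10 µM (6.19% of all genes) or 100 µM (10.8%).

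At 6 weeks, 10 nM PFOA was the dose at which the members lay farthest from the controls, without passing the test. The linker gene H1-2 and the H2A genes H2AC18, H2AC20 and H2AC8 had their 3 exposed libraries below all 3 controls, with log2 fold changes from -1.97 to -1.22. H3C6, H2AC6 and H4C14 had theirs above. None of the 15 members passed limma's adjusted threshold, the same as for all 12201 genes (0%). All genes shifted widely at this dose, and the background has to be read beside each count: 5 members, 4 of them lower, had an unadjusted p under 0.05 against 44% of all genes. Of the 15 members, 6 lay below all controls in normalised counts against 29.8% of genes, and 3 lay above against 30.6%. These shares rest on few members and are not far from the background. H4C15 was among those below and H4C14 among those above, and their split is uncertain.

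H1-2 had normalised counts of 891, 530 and 442 in the 6-week controls and 223, 141 and 162 at 10 nM. Its highest exposed library thus lay under its lowest control. The log2 fold change was -1.78 ± 0.56 (SE), with an adjusted p of 0.0953 in limma's test. H2AC18 went from 420, 182 and 246 in the controls to 130, 72.2 and 106, again without overlap, and its log2 fold change was -1.40 ± 0.55. H2AC20, a neighbour of H2BC21 on chromosome 1, held 102, 76.7 and 28.3 in the controls and 20.8, 12.5 and 12.2 at 10 nM. Its log2 fold change of -1.97 ± 0.76 had the same adjusted p of 0.0953. H2AC8 held 27.5, 14.2 and 14.2 in the controls and 11.3, 4.42 and 6.89 at 10 nM, at -1.22 ± 0.69. In normalised counts H2BC12 and H4C15, which make core histones too, also lay below all controls, at -0.76 ± 0.33 and -0.50 ± 0.28. In recovered reads, before scaling, both overlapped the controls. H2BC12 held 285, 372 and 329 reads in the controls and 333, 285 and 276 at 10 nM. H4C15 held 199, 239 and 267 in the controls and 252, 266 and 246 at 10 nM. H2AC8, with 17, 13 and 14 reads against 13, 6 and 9, touched its controls. For H1-2, H2AC18 and H2AC20 the reads did not overlap.

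In the other direction, H4C14 had 0, 2.19 and 8.09 normalised counts in the controls and 19.9, 19.9 and 13.8 at 10 nM. That is a log2 fold change of 2.60 ± 0.71 from a very low level, with an adjusted p of 0.0953 in limma's test. The split of H4C14 with H4C15 is uncertain, and in normalised counts the sum of this pair went the other way. It was 322, 264 and 278 normalised counts in the controls and 238, 216 and 202 at 10 nM. The direction of the pair depended on the scaling. In recovered reads H4C14 held 0, 2 and 8 in the controls and 23, 27 and 18 at 10 nM. H4C15 held 199, 239 and 267 reads in the controls and 252, 266 and 246 at 10 nM. H3C6 held 9.70, 10.96 and 16.2 in the controls and 21.6, 19.2 and 20.7 at 10 nM, so the narrow exposed group lay clear of the controls. H2AC6 held 14.5, 19.7 and 7.08 in the controls and 19.9, 25.1 and 26.03 at 10 nM, and the groups were nearly in contact. Their log2 fold changes were 0.72 ± 0.39 and 0.83 ± 0.91.

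The call at 10 nM depended on the tool and on the libraries fitted. DESeq2 on the recovered reads called 4 members, H4C14, H2AC20, H1-2 and H2AC18, among 3706 genes (30.4% of those tested), and edgeR called 0. Of these, H4C14 has an uncertain split with H4C15. With limma fitted to the control and 10 nM libraries alone, 4 members passed, among 4742 genes (38.9%). Without 1 nM replicate 1, a library outside this comparison, 5 members passed (48.7% of genes), and without 1 nM replicate 3, 3 did (26.3%). None of these shares of the members was above that of all genes.

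At 6 weeks and 1 nM, 0 members passed limma's adjusted threshold (0% of all genes). H4C14 was the 1 member with an unadjusted p under 0.05 (0.254% of genes) and the 1 member with no overlap (1.31%), with 15.7, 29.2 and 8.24 normalised counts. The lowest of those lay only just above the highest control of 8.09, and the split of H4C14 with H4C15 is uncertain. H1-2 at 1 nM held 184, 687 and 921, spanning the controls. At 100 nM, again 0 passed (0%), and 2 members had an unadjusted p under 0.05 (12.2%). The 2 members with no overlap (47.3% of all genes) were H1-2, with 161, 195 and 426 below all controls, and H2BC21, with 73.7, 79.8 and 72.3 above controls of 48.5, 37.3 and 66.7. Their log2 fold changes were -1.32 ± 0.56 and 0.60 ± 0.33. The trend over the 6-week doses passed for 0 members (0%) with limma and edgeR and for 3 with DESeq2 (26% of genes), and 6 members had an unadjusted p under 0.05 against 44.6% of genes. Without 1 nM replicate 1, limma passed 8 members in that trend, against 58.1% of all genes.

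At 12 weeks the separation seen for H1-2 at 6 weeks was not found. H1-2 held 1481, 2221 and 703 normalised counts in the controls and 1970, 539 and 380 at 10 nM, which overlapped widely. It held 680, 1418 and 1172 at 1 nM and 1129, 1984 and 439 at 100 nM. No member of the 14 tested passed limma's adjusted threshold at 1 nM (0% of 12304 genes), 10 nM (0%) or 100 nM (0%) or in the trend (0%), and edgeR and DESeq2 called 0. An unadjusted p under 0.05 was reached by 0 members at 1 nM (0.195% of genes), 2 at 10 nM (1.37%), 0 at 100 nM (2.33%) and 0 in the trend (2.22%). The member medians were -0.02, -0.04 and -0.33, against 0.00, 0.02 and 0.00 over all genes. Without 10 nM replicate 1 the median at that dose was -0.38, and without 100 nM replicate 3 the median at 100 nM was -0.09.

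H2BC21 was the 1 member without overlap at 12 weeks, at 10 nM (3.28% of all genes). It held 67.9, 50.01 and 107 normalised counts in the controls and 133, 176 and 162 at 10 nM, a log2 fold change of 1.11 ± 0.39 (SE) with an adjusted p of 0.655 in limma's test. No member separated at 1 nM (2.46%) or 100 nM (4.64%). H2BC21 at 100 nM held 99.5, 55.5 and 149, which overlapped the controls.

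Whether the response at 12 weeks differed from that at 6 weeks was tested as the difference of the 2 contrasts. Over 14 members and 12037 genes, 0 members passed limma's adjusted threshold at 1, 10 or 100 nM (0% of genes in each), nor with edgeR or DESeq2. An unadjusted p under 0.05 was reached by 0 members at 1 nM (0.208%), by H4C14 alone at 10 nM (0.349%) and by 0 at 100 nM (0.565%). The difference for H1-2 at 10 nM was 0.94 ± 0.94 (SE) on the log2 scale, a difference of about the size of its error. The member median of the difference at 10 nM was 0.56, against -0.01 over all genes.

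**Figure D3:**
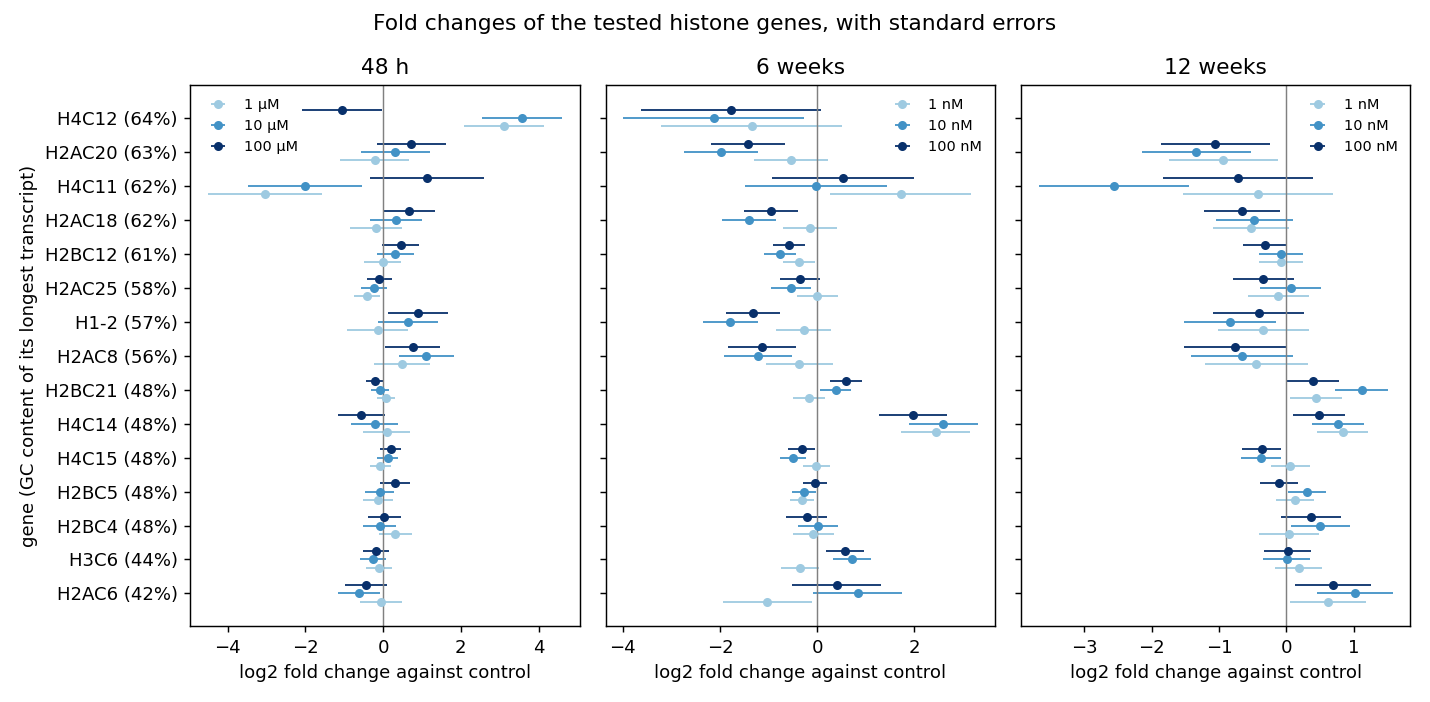
Log2 fold change of each tested member against its control at each dose, with standard errors, at 48 h, 6 weeks and 12 weeks, the genes ordered by GC content. At 6 weeks and 10 nM, H1-2, H2AC18 and H2AC20 lie between -1.40 and -1.97. H4C14, whose split with H4C15 is uncertain, lies at 2.60, and no gene passes limma's test at any time.

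Summed over all members, the 6-week normalised count was 2097 ± 500 (SD, n = 3) in the controls, 2063 ± 937 at 1 nM, 1079 ± 162 at 10 nM and 1315 ± 375 at 100 nM. The size of that difference depended on the scaling. In RPM, a gene's reads scaled to a library of 1000000 reads, the controls held 88.9 ± 3.35 and the 10 nM libraries 73.4 ± 4.90, ranging from 85.1 to 91.5 and from 68.1 to 77.7. The groups did not overlap on either scale, but the log2 ratio was -0.96 in normalised counts and -0.28 in RPM. At 100 nM it was -0.67 and -0.11. In bulk RNA, fewer cells in S phase and less histone mRNA in each cannot be told apart.

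By class the scaling changed the direction. H1 at 6 weeks and 10 nM went from 634 ± 243 normalised counts to 180 ± 42.6, and from 26.2 ± 2.70 RPM to 12.2 ± 1.75, and H2A was lower on both scales as well. H2B went from 598 ± 42.3 to 411 ± 48.5 normalised counts, but from 26.1 ± 5.02 to 28.1 ± 1.56 RPM. H4 likewise was lower in normalised counts, 364 ± 41.8 against 248 ± 23.9, and slightly higher in RPM, 15.7 ± 2.33 against 16.9 ± 0.244. H3 was higher in RPM, from 1.52 ± 0.386 to 2.68 ± 0.0525. In normalised counts its libraries overlapped, with 40.4, 27.4 and 37.4 in the controls and 44.2, 36.1 and 37.5 at 10 nM. At 48 h the sums were 1644 ± 504 in the controls, 1613 ± 633 at 1 µM, 2413 ± 1542 at 10 µM and 2286 ± 496 at 100 µM, with overlap throughout. At 12 weeks they were 4100.2 ± 1309 in the controls and 3541 ± 635, 3491 ± 1772 and 3329 ± 1116 at 1, 10 and 100 nM, again overlapping.

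**Figure D4:**
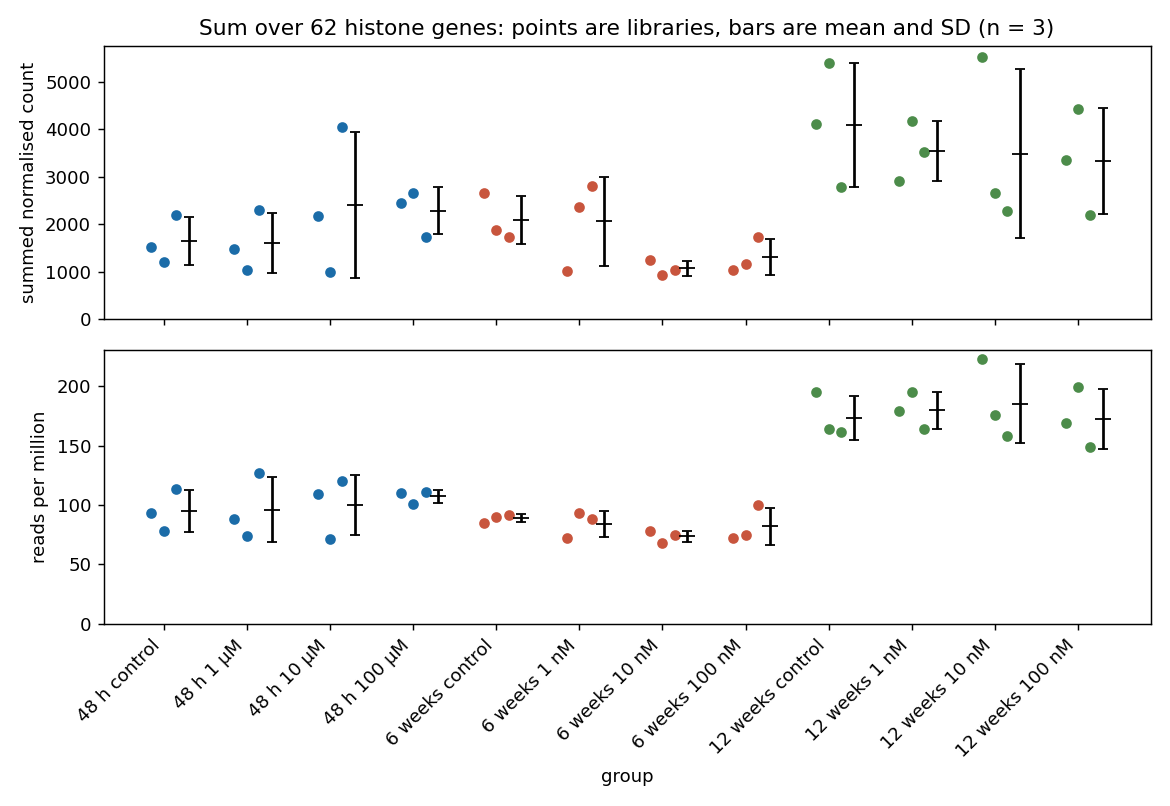
Summed normalised count of the 62 genes and their summed RPM, by group, with each library as a point and the mean and SD. The 6-week 10 nM libraries lie below their controls on both scales, and the 12-week libraries range from 149 to 223 RPM.

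In RPM, the largest difference in total lay between the times and not between the doses. As a description across tables, with no test, the 12 libraries at 12 weeks held 149 to 223 RPM on the histone genes. The 48 h libraries held 71.1 to 127 and the 6-week libraries 68.1 to 99.9, so every 12-week library lay above all 24 others. The controls alone gave 173 ± 18.7 at 12 weeks, 88.9 ± 3.35 at 6 weeks and 94.8 ± 17.996 at 48 h. Of the 15 tested members, 13 had a higher mean at 12 than at 6 weeks, also in the controls alone, with a median ratio of 2.00. Over 12570 genes chosen by the same minimum, 40.8% had a higher mean at 12 weeks, with a median ratio of 0.933. For H2BC12, H2BC5 and H4C15 every library at 12 weeks lay above every library at 6 weeks, as did 1.53% of those genes. H2BC12 ranged from 26.6 to 45.8 RPM at 12 weeks and from 12.5 to 20.9 at 6 weeks. H2BC5 ranged from 6.96 to 20.2 and from 2.53 to 6.02, and H4C15 from 20.04 to 34.7 and from 10.3 to 17.1. Time of exposure, age in culture, harvest and table cannot be told apart here.

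Genes of DNA replication did not move with the histone genes between the times. The summed list of 48 replication genes held between 1370 and 2742 RPM in the 48 h libraries and between 2254 and 3541 in the 6-week ones. The 12-week libraries held 888 to 1743, so the list was lowest where the histone sum was highest. The list of 30 mitosis genes was likewise lowest at 12 weeks, at 699 to 1566 against 1999.5 to 3946 at 6 weeks.

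Within a time, the median SD within groups, on the log2 scale, was 0.69 for the members against 0.50 for all genes at 48 h, 0.77 against 0.50 at 6 weeks and 0.55 against 0.54 at 12 weeks. Members above the all-gene median numbered 10 of 15, 9 of 15 and 7 of 14. Without H4C11 and H4C12, left out after the values were seen because their split is uncertain, the member medians were 0.64, 0.52 and 0.52, so at 6 weeks the difference from all genes rested mostly on those 2 genes.

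The level of several members ran with the share of reads on ribosomal protein genes. H1-2 followed this share with Pearson's r = 0.985 and Spearman's rho = 0.986 over the 12 libraries at 48 h (permutation p = 1e-05 for each, the smallest the 100000 permutations can give). At 6 weeks r was 0.979 and at 12 weeks 0.950, and without the 2 libraries farthest from the median share r was 0.991, 0.980 and 0.917. Within groups r was 0.984, 0.971 and 0.974, and in RPM 0.981, 0.977 and 0.925. Such relations were computed for 44 pairs of a gene and a time, with 2 measures each, and the adjusted p for H1-2 was at most 0.00017.

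The other histone genes fell to either side. H2AC18 had r of 0.967, 0.944 and 0.925 at the 3 times and rho of 0.951, 0.944 and 0.965, and H2AC20 had r of 0.956, 0.948 and 0.883 and rho of 0.937, 0.909 and 0.916. Each of these had an adjusted permutation p of 0.00071 or less, and r was at least 0.808 without the 2 farthest libraries. H2AC6 went the other way, with r of -0.842, -0.584 and -0.873, rho of -0.804, -0.783 and -0.825 and adjusted permutation p of at most 0.0217. Without the 2 farthest libraries its r was -0.813, -0.641 and -0.835. H2BC21 had r of -0.499, -0.668 and -0.701, rho of -0.448, -0.664 and -0.685, and adjusted permutation p for r of 0.131, 0.0314 and 0.0206. Without the 2 farthest libraries its r was -0.375, -0.760 and -0.573. The scale mattered for the 2 genes that follow. H2BC12 had r of 0.958, 0.940 and 0.940 and rho of 0.909, 0.895 and 0.986 in normalised counts, with adjusted permutation p of at most 0.0007. In RPM its r was 0.686, 0.0903 and 0.0338. H4C15 changed sign with the scale, from r of 0.836, 0.943 and 0.879 and rho of 0.769, 0.958 and 0.846, with adjusted permutation p of at most 0.00966, to r of -0.416, -0.478 and -0.108 in RPM. Without the 2 farthest libraries r in normalised counts was at least 0.894 for H2BC12 and at least 0.704 for H4C15. At 6 weeks the ribosomal share was 17.2% to 19.4% in the controls and 9.37% to 13.4% at 10 nM, without overlap, so the 10 nM contrast and this share cannot be told apart within those 2 groups. With the first principal component of the 6-week table as a covariate, the 10 nM log2 fold change of H1-2 was -0.32 and that of H2AC18 was 0.09. That component was computed from the same values, members included. Its scores were 0.27 to 1.65 in the controls and -1.23 to -0.44 at 10 nM. The fit therefore cannot separate the contrast from the component.

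**Figure D5:**
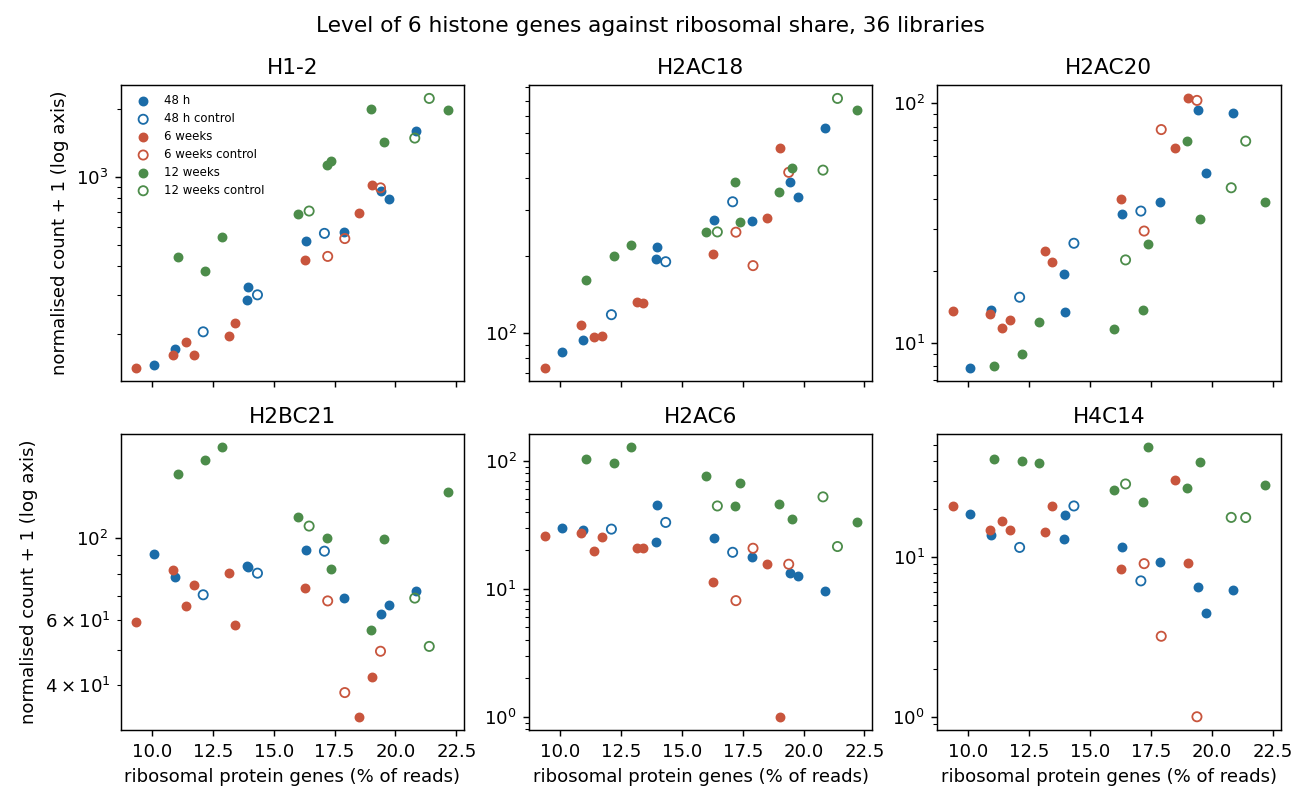
Normalised count of 6 histone genes against the percentage of reads on ribosomal protein genes, each point a library, at 48 h, 6 weeks and 12 weeks. H1-2, H2AC18 and H2AC20 climb with the share at each time, and H2AC6 and H2BC21 go down.

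The members were also described by base composition, with a split at 50% GC that was chosen after the values were seen and carries no test. The 8 tested members at or above it had 56.2% to 64.1% GC and the 7 below it 42.0% to 48.0%. For H1-2, H2BC12, H2AC20 and H4C12 the model held the coding part alone. The correlation with the ribosomal share was positive for 8 of 8, 8 of 8 and 7 of 7 of the high-GC members at the 3 times, and for 3, 3 and 2 of the 7 others. Over all genes tested it was positive for 48.1%, 48.6% and 48.6%. In RPM these were 6, 7 and 6, and 1, 0 and 0, and 26.8%, 28.3% and 27.1% of all genes. At 6 weeks and 10 nM, 0 of 8 high-GC members were higher than in the controls, with a median log2 fold change of -1.31, and 5 of 7 others were, with a median of 0.38. At 12 weeks and 1 nM the counts were 0 of 7 and 7 of 7, and at 48 h and 100 µM they were 6 of 8 and 3 of 7. In 2 other contrasts most members of both sets were lower: at 6 weeks and 1 nM 2 of 8 and 1 of 7 were higher, with medians of -0.32 and -0.17, and at 48 h and 1 µM 2 of 8 and 3 of 7, with medians of -0.16 and -0.06. Comparisons at 1 time share their controls. Other genes were not split by GC, so these counts have no background of like composition. Some of the members also share sequence, as described. The part of base composition and ribosomal share in the PFOA contrasts was not tested.

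The genes around histone supply were read from lists. None of their members passed limma's adjusted threshold in any comparison, nor edgeR's, while DESeq2 called some at 6 weeks, in the 10 nM contrast and in the trend. At 6 weeks and 10 nM, of 43 genes of histone mRNA transcription, processing and decay, 25 were higher and 18 lower, with a median log2 fold change of 0.29 against 0.05 over all genes. An unadjusted p under 0.05 was reached by 13 of the higher and 7 of the lower, against 44% of all genes, and DESeq2 called 4 of the list higher and 5 lower, against 30.4% of all genes in either direction. SLBP, which binds the stem-loop, held 337 ± 164 normalised counts (SD, n = 3) in the controls and 695 ± 30.0 at 10 nM, a log2 fold change of 1.18 ± 0.52. NPAT, the coactivator of histone transcription, held 132 ± 62.8 and 276 ± 105, and ERI1, an exonuclease that trims the stem-loop, had 0.75 ± 0.32. These 3 genes, named for their roles, lay above all their controls, as did 30.6% of all genes at this dose. CASP8AP2 had 2.49 ± 0.73, and NELFE, a subunit of the negative elongation factor, had -1.63 ± 0.56.

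Of 12 tested genes of histone variants, 7 were higher and 5 lower at 6 weeks and 10 nM. DESeq2 called 0 higher and 4 lower (30.4% of all genes in either direction). H2AX, the variant phosphorylated at DNA breaks, had a log2 fold change of -1.11 ± 0.46. H2AZ1 had 0.69 ± 0.44, and H3-3A and H3-3B, the genes of H3.3, had 0.29 ± 0.32 and 0.29 ± 0.26. Of 31 histone chaperones 18 were higher and 13 lower, and of 48 replication genes 29 and 19, with medians of 0.42 and 0.34. DESeq2 called 3 chaperones higher and 2 lower, and 3 replication genes higher and 5 lower, again against 30.4% of all genes in either direction. Of 30 mitosis genes 21 were higher, and of 13 cell cycle inhibitors 10, with medians of 0.43 and 0.70. PCNA, the sliding clamp of the replication fork, had 0.71 ± 0.34, MCM3 of the replicative helicase 0.46 ± 0.26 and the S-phase cyclin CCNE2 1.94 ± 0.77. At this dose the epithelial marker list had a median of -1.51 (6 of 7 lower) and the endothelial list one of -0.35 (10 of 18 lower), and their part in the histone values was not tested.

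At 48 h and 100 µM the replication list had 12 genes higher and 36 lower, with a median log2 fold change of -0.31, and the chaperones 8 and 23, with -0.26, against 0.03 over all genes. The histone member median was 0.19 in the same libraries. At 12 weeks and 100 nM the replication list had 38 higher and 10 lower, with a median of 0.31, while the histone median was -0.33. No gene of either list passed limma's test in these comparisons. The sign of the histone median was not stable. Without 1 library it ranged from -0.02 to 0.33 at 48 h and 100 µM. At 12 weeks and 100 nM it was 0.041 with the first principal component in the fit and 0.078 with no minimum on the mean.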

How the data were processed

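Libraries of EA.hy926 mRNA were sequenced as paired reads in 36 samples, 3 a group, per the labels. The deposited values are normalised counts, a signal that the authors made from gene counts with DESeq2, after HISAT and Bowtie2 on GRCh38.p14, per the submitters' processing notes. For the counting tool, its strand setting and all versions, no source used here gives a name. The deposited signal was a whole multiple of 1 step in each library (100% of values whole within 0.01 read), which gave back the reads and the depth of 17815292 to 19466331 reads. P-values of the fits set group differences against the spread between these libraries, which are all of 1 cell line.

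Genes with a mean of at least 10 in a table were tested on log2(value + 1), where fold changes of low genes are understated, with limma 3.58.1 in R 4.3.3, two-sided, with Benjamini-Hochberg adjustment over all genes. All 12 libraries of a table share one spread. Differences of contrasts used the 6- and 12-week tables together. The alternatives, beside other settings, were DESeq2 1.42.0 and edgeR 4.0.16, both run on these reads. The limma, edgeR and DESeq2 steps were tested on simulated data. With 3 against 3 an exact permutation test cannot go below 0.1. Differences in level between the times were described only in RPM. Means over the 36 libraries, shares of the histone signal and levels per kilobase pooled the normalised counts of the 3 tables. The members, lists and tests were chosen with earlier results of these data known. Members named in a comparison were those passing, then up to 4 a direction without overlap by fold change, and the 2 highest per kilobase in each class, plus fixed genes of the lists. Others were chosen after their values were seen. Gene models came from GENCODE 29 and promoters and spans from RefSeq on GRCh38.p14.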

Additional observations from a re-analysis of the deposited data

How the results depend on the processing

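Of the log2 fold changes of named members, 102 kept direction and side of the threshold under the alternatives, 8 newly passed it and 3 turned. Once the first principal component was a covariate, at 6 weeks and 10 nM, H2AC6 was at -0.80, H2AC18 at 0.092 and H2AC8 at 0.42. That component came from the same values and separated those 2 groups, and the cause was not tested. At that dose DESeq2 called 4 members and the fit to the 2 groups alone 4, against 0 in limma's test, and DESeq2 called 3 in the 6-week trend. Leaving out 1 library gave 0 to 5 called members at 6 weeks and 10 nM and 0 to 8 in the trend. The member median at 12 weeks and 10 nM was 0.26 with the principal component and ranged from -0.38 to 0.039 without 1 library. At 12 weeks and 100 nM it was 0.041 with the component, 0.078 without a filter, and -0.43 to -0.087 without 1 library. The log2 ratio of the summed members in RPM was -0.28 at 6 weeks and 10 nM and -0.11 at 100 nM. The replicate block left 0 members called in all 15 comparisons. At 6 weeks and 10 nM it gave 4162 genes an unadjusted p under 0.05, against 5365. The numbers were not shown to pair the samples, as same-numbered libraries had median correlations of 0.02, -0.20 and -0.40 at 48 h, 6 and 12 weeks. Depth limits the 17 members with a mean under 1, which no test reached.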
